A study of Mus musculus with 28 samples.

Results

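The genes described here are 10 components of the Notch pathway in a mouse mammary epithelial cell line undergoing epithelial-mesenchymal transition (EMT): the ligands Jag1, Jag2 and Dll1, the receptors Notch1, Notch2 and Notch3, the DNA-binding factor Rbpj, and the targets Hes1, Hey1 and Heyl. They are described by the H3K27ac peaks whose summit lay within 100 kb of a protein-coding start site of one of these genes and nearer to it than to that of any other gene. Of 893719 peaks in 15 libraries, 1619 met this rule, and of 89050 regions made by joining overlapping peaks of the libraries, 144 did. A region counted as a promoter where its summit lay from 1000 bp upstream to 100 bp downstream of the start site, which held for 8 of the 144, and as distal otherwise.

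Notch receptors are cut when a ligand on a neighbouring cell binds them, and the freed intracellular part joins Rbpj on DNA to switch on targets such as the Hes and Hey repressors. The pathway takes part in cell fate choice in the mammary gland, and Jag1 is a known TGF-β target in epithelial cells. Acetylation of lysine 27 of histone H3 (H3K27ac) marks active promoters and enhancers, so a ChIP-seq peak of it is a stretch of acetylated chromatin, not a measure of RNA.

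All groups were NMuMG/E9 cells, a subclone of the NMuMG line, which is of normal mouse mammary gland epithelium. The 5 groups of 3 libraries each were 0h, without TGF-β, 4h and 24h after 2 ng/ml TGF-β with DMSO as vehicle, and ERKi 4h and ERKi 24h, in which 25 μM UO126, an inhibitor of the kinases MEK that activate ERK, was given 30 min before the same TGF-β dose. There was no group with UO126 and no TGF-β, so an effect of the inhibitor alone could not be told apart from one on the TGF-β response. There was also no group kept for 4h or 24h without TGF-β. In the comparisons with 0h, an effect of time in culture therefore could not be told apart from one of TGF-β. Nothing in the labels says whether the 3 libraries of a group came from separate cultures, and the p-values below then measure only the spread between these libraries. Peaks lay within 2500 bp of the start sites of 4 of 8 epithelial marker genes in all 15 libraries (Cdh1, Krt7, Krt8 and Krt18). Cldn4 had one in 11, with no 0h library among them, and Cldn3 in 1, while Epcam and Esrp1 had none. Of 7 mesenchymal marker genes, Vim, Cdh2 and Col1a1 had such a peak in all 15 libraries, including the 0h libraries, and Fn1 and Pdgfra in 3, Pdgfrb in 1 and Dcn in none. None of 4 endothelial or 3 adipocyte markers had one, and among leukocyte markers Itgam had one in 4 libraries and Csf1r in the 3 ERKi 24h libraries, with Ptprc and Cd3e at none. The rule planned for these markers was narrower, a summit in the promoter. By that rule Krt7 and Krt8 had a peak in all 15 libraries, Cldn4 and Cdh2 in 11 and Vim in 8. Pdgfra had one in 3 and Pdgfrb in 1, and the other markers, Cdh1, Krt18 and Col1a1 among them, had none.

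Levels are normalised pileups: the number of ChIP fragments stacked at a peak's summit, plus 1, divided by a factor for each library. For each region and library the highest summit in the region is taken. That point can differ between libraries, and a wider region can hold more summits to choose from. The lists give no read totals, so the depth is unknown and no counting interval is given. They held 50445 to 69180 peaks per library with a median summit pileup of 38 to 57 fragments, and 93 to 131 peaks per library belonged to the Notch genes. Of the 144 regions, 52 (36.1%, against 30.2% of all regions) had a peak in all 15 libraries and entered the test, 3 of them promoter regions, and 32 had a peak in 1 library only.

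6 of the sequences under these regions are shown first, and whether the differences below depend on sequence was not tested. For each gene with a region that passed the test, 300 bases of mm9, plus strand, are centred on the summit of the region with the lowest adjusted p. The test meant here is the one without the replicate block described below. For Notch2, which had no region that passed it, the sequence is of the region with the higher level among those with a peak in every library of one group and in none of another. Capitals mark matches on either strand to 7 short motifs: TGGGAA (RBPJ), TGANTCA (AP-1), CAGAC (SMAD), GGAATG (TEAD), CCGGAA (ETS), CAGGTG (ZEB and SNAI E-box) and TGTGGT (RUNX).
Jag1, 67.3 kb downstream of its start, in an intron of 2210009G21Rik, chr2:136874951-136875250: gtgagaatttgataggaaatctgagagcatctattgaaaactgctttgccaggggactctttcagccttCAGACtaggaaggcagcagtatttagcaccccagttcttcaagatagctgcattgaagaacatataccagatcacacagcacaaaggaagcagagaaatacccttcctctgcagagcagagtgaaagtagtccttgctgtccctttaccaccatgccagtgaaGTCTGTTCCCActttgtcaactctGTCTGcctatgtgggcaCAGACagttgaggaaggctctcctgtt
Notch1, 9.01 kb upstream, intergenic, chr2:26381039-26381338: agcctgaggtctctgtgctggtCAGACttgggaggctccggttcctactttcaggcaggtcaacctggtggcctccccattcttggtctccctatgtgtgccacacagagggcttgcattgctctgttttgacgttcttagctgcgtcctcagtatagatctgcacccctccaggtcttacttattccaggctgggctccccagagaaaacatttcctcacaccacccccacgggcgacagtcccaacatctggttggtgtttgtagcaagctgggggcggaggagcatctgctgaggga
Notch2, 14.5 kb downstream, in a Notch2 intron, chr3:97831831-97832130: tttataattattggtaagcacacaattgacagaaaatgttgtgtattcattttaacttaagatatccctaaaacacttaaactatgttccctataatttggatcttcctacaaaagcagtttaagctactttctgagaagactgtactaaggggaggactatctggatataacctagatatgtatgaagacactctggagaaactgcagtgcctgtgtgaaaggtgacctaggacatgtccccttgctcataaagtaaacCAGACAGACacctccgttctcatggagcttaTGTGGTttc
Rbpj, 11.9 kb upstream, intergenic, chr5:53934934-53935233: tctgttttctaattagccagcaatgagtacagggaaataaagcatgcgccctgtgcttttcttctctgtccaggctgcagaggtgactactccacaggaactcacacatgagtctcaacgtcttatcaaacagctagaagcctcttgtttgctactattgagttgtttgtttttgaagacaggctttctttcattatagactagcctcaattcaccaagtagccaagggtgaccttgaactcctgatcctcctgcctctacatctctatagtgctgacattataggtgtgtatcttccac
Hes1, 19 kb upstream, intergenic, chr16:30046234-30046533: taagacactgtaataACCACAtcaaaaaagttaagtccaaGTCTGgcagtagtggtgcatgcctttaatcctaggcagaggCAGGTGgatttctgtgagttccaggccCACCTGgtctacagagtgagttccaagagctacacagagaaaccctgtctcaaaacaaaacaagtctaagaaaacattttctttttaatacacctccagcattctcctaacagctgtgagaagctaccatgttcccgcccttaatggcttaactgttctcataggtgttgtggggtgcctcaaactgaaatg
Hey1, 74.7 kb upstream, intergenic, chr3:8741603-8741902: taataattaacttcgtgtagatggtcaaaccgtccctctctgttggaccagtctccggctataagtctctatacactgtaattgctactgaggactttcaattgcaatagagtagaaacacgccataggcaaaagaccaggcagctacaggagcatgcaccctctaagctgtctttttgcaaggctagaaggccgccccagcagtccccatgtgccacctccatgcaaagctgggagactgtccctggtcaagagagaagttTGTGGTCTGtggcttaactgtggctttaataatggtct

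The Jag1 sequence held 4 SMAD words and 1 RBPJ word, the Hes1 sequence 2 E-boxes, 1 SMAD and 1 RUNX word, and the Hey1 sequence 1 RUNX and 1 SMAD word that overlap. The Notch1 sequence held 1 SMAD word and the Notch2 sequence 2 and 1 RUNX word. The Rbpj sequence held none of the 7. Over 300-base windows, the share of member regions with each word lay near that of all regions: RBPJ 25.0% against 27.7%, AP-1 10.4% against 10.1%, SMAD 54.9% against 55.0%, TEAD 15.3% against 16.4%, ETS 3.47% against 5.66%, E-box 24.3% against 21.2% and RUNX 21.5% against 20.3%. A match is a run of letters, not a bound site, and the RBPJ and TEAD words can overlap each other.

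Acetylation next to the start sites differed in level among the 8 genes that had such a region in every library. At 0h the highest region within 2500 bp of a start site, among those with a peak in every library, stood at 265 ± 24.1 fragments (SD, n = 3) for Notch2 and 258 ± 17.4 for Jag1, with overlapping libraries. Rbpj followed at 165 ± 6.28, Hes1 at 145 ± 38.0, Hey1 at 103 ± 21.2 and Notch1 at 97.1 ± 14.3, each overlapping its neighbour in this order, and the Jag1 libraries all lay above those of Rbpj. Dll1, at 45.0 ± 18.8, lay below all Notch1 libraries, and Jag2, at 26.8 ± 2.28, below all Dll1 libraries.
The highest of the 5 group means was 1.06 times the lowest for Hes1, 1.14 for Rbpj, 1.21 for Jag1 and 1.25 for Notch2. It was 1.27 times the lowest for Hey1, 1.28 for Jag2, 1.52 for Notch1 and 1.63 for Dll1. None of the 8 regions passed in any of the 4 comparisons (lowest adjusted p = 0.0972, limma with Benjamini-Hochberg adjustment over 26934 regions). A lower Jag1 region, 521 bp downstream of the start, did pass at 24h against 0h and is described below. With the replicate number as a block, described with the comparisons below, the Notch1 region 2.07 kb downstream of a start site fell by 0.58 on the log2 scale at ERKi 24h against 24h (adjusted p = 0.00135).

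**Figure D1:**
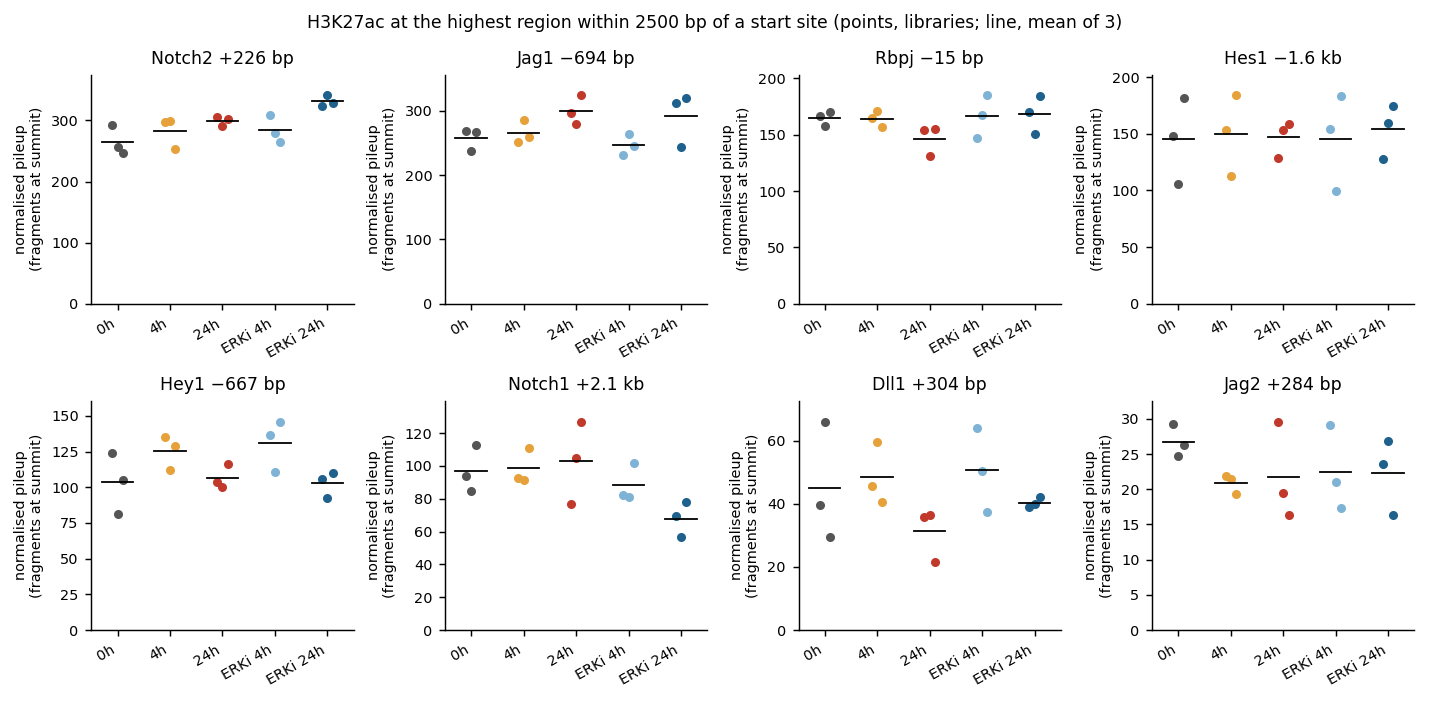
Normalised H3K27ac pileup (fragments at the summit, y axes from 0, each panel with its own scale) in each library of the 5 groups at the highest region within 2500 bp of a start site of 8 genes, with a line at the mean of 3 libraries. Notch2 and Jag1 lie highest, between 232 and 341 in all libraries, and Jag2 lowest, between 16.3 and 29.6.

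Notch3 and Heyl had no peak near their start sites in any library. The nearest summit to the Notch3 start was 41.0 kb away and belonged to Ephx3. The regions assigned to Notch3 all lay beyond the gene's 3′ end, and those with a peak in every library were 48.6, 49.4 and 57.5 kb downstream of the start. For Heyl the nearest summit was 49.2 kb away and nearer to Pabpc4, and each of the 63 peaks within 100 kb was nearest to another gene, so Heyl has no values here.

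Away from the start sites the genes differed in how many peaks they held. In the 0h libraries Hes1 had 22, 28 and 31 distal peaks, Rbpj 17, 18 and 17, Notch2 15, 11 and 17, and Jag1 12, 14 and 17. Notch1 had 10, 8 and 11, Dll1 7, 5 and 9, Hey1 7, 4 and 4, Notch3 4, 4 and 5, and Jag2 1 in each. The rule sets these numbers in part, since a gene far from other genes can collect more peaks. Hey1 was the gene whose groups did not overlap in a comparison: it had 2, 4 and 4 distal peaks at 24h and 8, 7 and 6 at ERKi 24h (exact two-sided permutation p = 0.1, the smallest that 3 against 3 allows).
Across all genes with a distal peak, the ERKi 24h libraries held more without overlap for 3.96% and fewer for 2.99%. In the other comparisons no Notch gene had distal counts without overlap, beside 12.1% of all genes with more and 4.13% with fewer at 24h against 0h, 4.24% and 1.17% at 4h against 0h, and 1.4% and 1.06% at ERKi 4h against 4h. Rbpj had 14, 21 and 17 at 24h and 8, 12 and 17 at ERKi 24h, a mean difference of -5.0 peaks between overlapping groups (p = 0.3, exact permutation test).
Promoter peaks were few, at most 4 per gene in any library, and their counts separated for Hey1 and Hes1. Hey1 had 1 promoter peak in each 0h library, 2 in each 4h library and 1 in each ERKi 4h library, and Hes1 had 0 in each 0h library, 1 in each 24h library and 0 in each ERKi 24h library (exact two-sided permutation p = 0.1, the smallest possible, in each of these 4 comparisons). Across all genes with a promoter peak, counts were higher without overlap for 0.618% and lower for 0.557% at 4h against 0h, for 1.21% and 0.88% at 24h against 0h, for 0.717% and 0.263% at ERKi 4h against 4h, and for 0.867% and 0.76% at ERKi 24h against 24h. With promoters widened to 2500 bp on either side, the Hey1 difference was 0.0 peaks at 4h and at ERKi 4h, and the Hes1 difference -0.667 at ERKi 24h. The level of the only Hey1 promoter region, 667 bp upstream, did not follow the peak count. It was 103 ± 21.2 fragments at 0h, 125 ± 12.0 at 4h and 131 ± 18.3 at ERKi 4h, and passed in no comparison (lowest adjusted p = 0.52, limma).

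**Figure D2:**
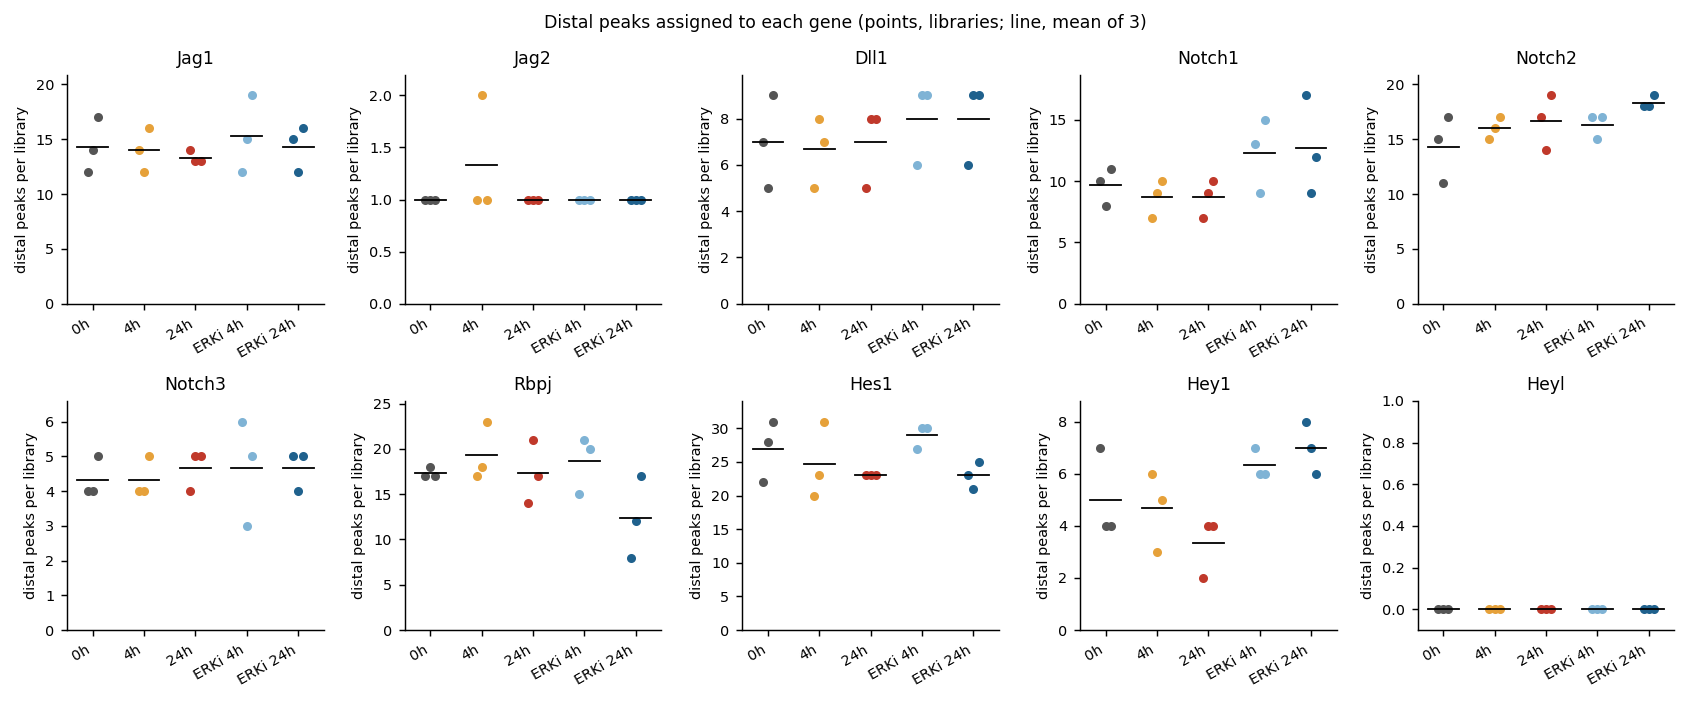
Distal H3K27ac peaks assigned to each of the 10 genes (peaks per library, y axes from 0, each panel with its own scale) in the 5 groups, with a line at the mean of 3 libraries. Hey1 is the gene with separate groups at 24h, where the highest library has 4, and ERKi 24h, where the lowest has 6.

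**Figure D3:**
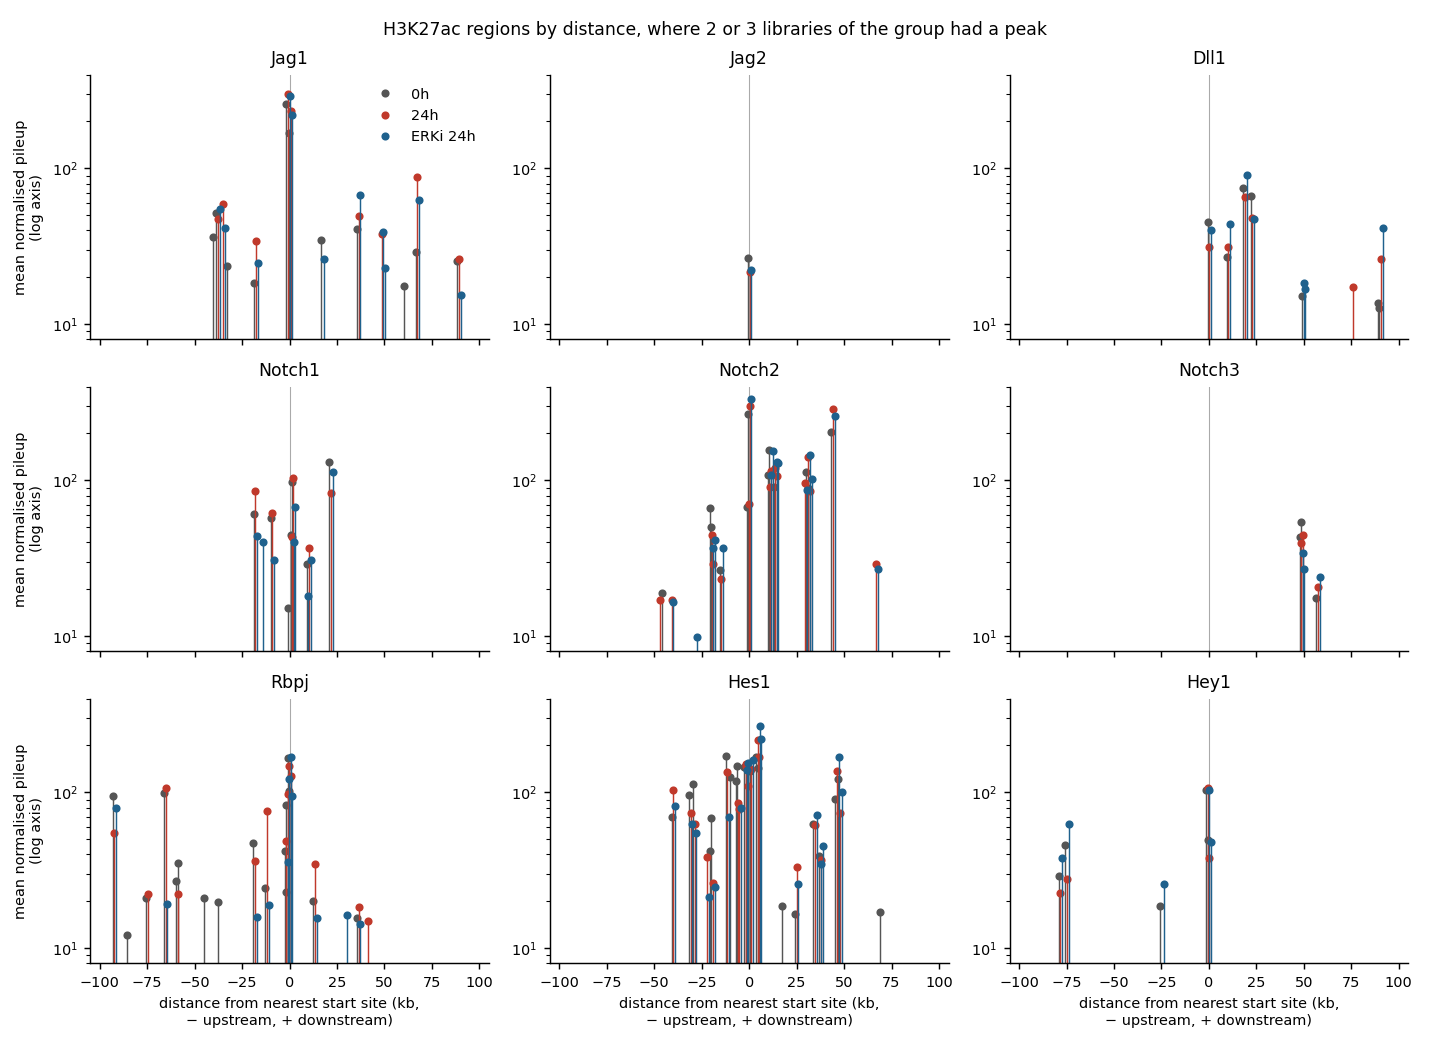
Mean normalised pileup (log axis) of each region against its distance from the nearest start site in kb, for the 9 genes with regions, at 0h, 24h and ERKi 24h, where 2 or 3 libraries of the group had a peak (points of a region are set side by side). Jag2 has a region at its start site alone, and Notch3 has regions between 48.6 and 57.5 kb downstream.

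At 24h against 0h, the question is which Notch gene regions gain or lose acetylation over 24h in culture with TGF-β. Among the 52 tested regions the largest rises were at distal regions of Rbpj and Jag1 and the largest fall at one of Hes1. Of these, 4 rose (3 of Jag1 and 1 of Rbpj) and 2 fell (1 each of Hes1 and Notch1), beside 10.7% of all 26934 regions that rose and 6.52% that fell. The median log2 difference was -0.005 over the 52 regions and -0.028 over all. With the replicate number as a block, 11 rose and 10 fell, beside 18.7% and 17.2% of all regions. These counts lie near what the shares over all regions give and are not particular to the Notch genes.

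Jag1 encodes a Notch ligand. At its region 67.3 kb downstream (chr2:136874315-136876200), which lies past the gene's 3′ end in an intron of 2210009G21Rik, the 0h libraries had 24.9, 25.9 and 37.2 fragments, the 4h libraries 38.6, 38.1 and 47.8, and the 24h libraries 76.6, 95.7 and 93.5. The levels of all 24h libraries lay above those of 0h and 4h, a 3.06-fold rise over 0h (log2 1.61 ± 0.21 SE, adjusted p = 4.93e-05 by limma). At ERKi 24h the libraries had 64.1, 60.3 and 63.0, all below the 24h libraries, and that difference did not pass (log2 -0.50 ± 0.21, adjusted p = 0.185, and 0.0214 with the block).
The region 17.7 kb upstream (chr2:136959512-136960639) had 13.2, 20.0 and 21.9 fragments at 0h and 37.4, 29.6 and 34.9 at 24h, without overlap (log2 0.92 ± 0.21, adjusted p = 0.005). The region 521 bp downstream of the start, in a Jag1 intron (chr2:136940242-136942465), rose least, from 190, 160 and 156 to 256, 221 and 218 (log2 0.46 ± 0.15, adjusted p = 0.0393). The promoter region 694 bp upstream, the higher neighbour of that one, had 258 ± 17.4 at 0h and 300 ± 22.0 at 24h and did not pass (adjusted p = 0.299).

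Rbpj is the factor through which all Notch receptors reach DNA. Its region 11.9 kb upstream (chr5:53933609-53935678) had 16.1, 25.9 and 30.7 fragments at 0h, 28.0, 34.5 and 37.7 at 4h and 70.5, 70.6 and 87.4 at 24h. The 24h libraries lay above all others, 3.24-fold over 0h (log2 1.70 ± 0.27, adjusted p = 0.000245). The promoter region of Rbpj, 15 bp upstream of a start site, was at 165 ± 6.28 at 0h and 147 ± 13.7 at 24h (adjusted p = 0.47).

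Hes1 encodes a repressor that is a direct Notch target. Its region 19 kb upstream (chr16:30045835-30046778) had 57.0, 57.7 and 89.8 fragments at 0h, 56.1, 63.1 and 80.1 at 4h, and 20.0, 31.9 and 26.7 at 24h. The 24h libraries lay below all of 0h and 4h (log2 -1.37 ± 0.30, adjusted p = 0.00349). The ERKi 24h libraries, at 15.5, 34.6 and 24.1, overlapped those of 24h (log2 -0.13 ± 0.30, adjusted p = 0.878).
The Notch1 region 21.8 kb downstream, in a Notch1 intron (chr2:26336672-26339447), had 126, 119 and 149 fragments at 0h and 65.3, 80.9 and 102 at 24h. The groups did not overlap (log2 -0.69 ± 0.22, adjusted p = 0.0339), and with the inhibitor at 24h the libraries had 111, 95.0 and 136, higher in all 3 numbered pairs (log2 0.47 ± 0.22, adjusted p = 0.222, and 0.0044 with the block).

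Regions of Notch2, Hes1 and Rbpj were among those that passed at 24h with the block alone. The Notch2 region 44.1 kb downstream, in a Notch2 intron, had 203 ± 21.3 fragments at 0h and 287 ± 72.3 at 24h (adjusted p = 0.12, and 0.000245 with the block). The Hes1 region 4.66 kb downstream, the highest distal region of that gene, had 168 ± 33.6 and 216 ± 30.1 (0.17, and 0.00162 with the block). The Rbpj region 92.3 kb upstream fell from 94.3 ± 17.4 to 54.8 ± 22.2 in the block fit (0.0666, and 0.000723 with the block). The highest distal regions of Dll1, 19 kb downstream, and of Notch3, 49.4 kb downstream, passed in neither fit of this comparison (adjusted p = 0.698 and 0.731, and 0.174 and 0.396 with the block).
The others that rose with the block alone were Hes1 regions 40.0 kb upstream (adjusted p = 0.000338) and 46.2 kb downstream (0.000262), the Notch1 region 17.9 kb upstream (0.0224), the Notch2 region 13.8 kb downstream (0.0256) and the Rbpj region 595 bp downstream (0.0461). The others that fell were Hes1 regions 47.9 kb downstream (6.28e-05), 28.7 kb upstream (0.00175) and 30.8 kb upstream (0.0494), the Hey1 region 74.7 kb upstream (0.00169), Notch2 regions 11.6 kb downstream (0.00242) and 19.7 kb upstream (0.0186), and the Dll1 region 22.9 kb downstream (0.0257).

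Some of these calls rest on the measure or on single libraries. Measured as fold enrichment over MACS2's local background in place of pileup, the Rbpj region 11.9 kb upstream and the Hes1 region 19 kb upstream still passed (adjusted p = 0.00351 and 0.0342), the Jag1 regions 67.3 kb downstream and 17.7 kb upstream did not (0.066 and 0.123), and the Jag1 region at 521 bp and the Notch1 region at 21.8 kb turned in sign (log2 -0.08 and 0.15). The Jag1 call at 521 bp was lost without 0h replicate 2 or 3, without any one 24h library or without ERKi 4h replicate 1, and the Notch1 call at 21.8 kb without 0h replicate 1 or 3 or 24h replicate 1 or 2. Without these libraries the log2 values ranged from 0.39 to 0.50 and from -0.71 to -0.53, with adjusted p up to 0.168 and 0.173.

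**Figure D4:**
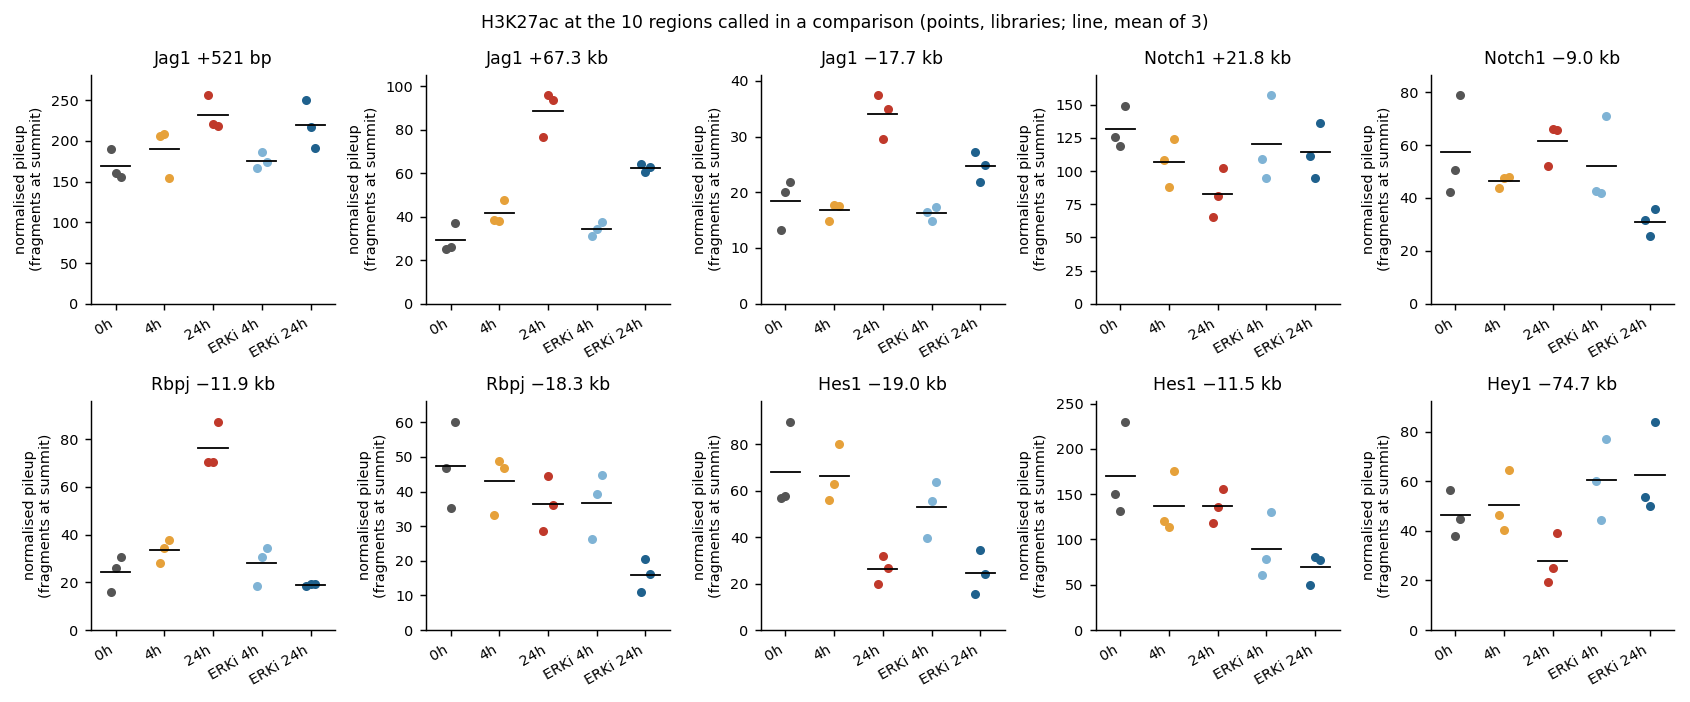
Normalised H3K27ac pileup (fragments at the summit, y axes from 0, each panel with its own scale) in each library at the 10 regions that passed in at least 1 comparison without the replicate block, with a line at the mean of 3 libraries. The Rbpj region 11.9 kb upstream stands between 70.5 and 87.4 at 24h and between 18.4 and 19.4 at ERKi 24h.

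The called regions lay mostly away from the start sites. Without the block, 1 of 15 member regions within 2500 bp of a start site (6.67%) passed in any of the 4 comparisons, against 9 of 37 farther away (24.3%). Over all regions the shares were 6.74% of 12400 and 34.2% of 14534. The difference between the shares was not tested.

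Peaks also came and went at 24h in regions outside the test. Of 119 member regions with a peak in a 0h or 24h library, 6 had one in all 24h and no 0h library, beside 5.98% of all regions, and 6 the reverse, beside 2.52%. A missing peak says that the region did not pass the peak caller, not that its level was 0. Jag1 showed 2 gains and 3 losses: the gains were 48.6 kb downstream (45.3, 23.9 and 45.2 fragments at 24h) and 34.9 kb upstream (51.4, 39.9 and 86.3), and the losses were 17.5 kb downstream, 32.1 kb upstream and 39.4 kb upstream.
The 17.5 kb region, in a Jag1 intron, had 27.8, 36.5 and 40.5 fragments at 0h and 21.4, 32.1 and 24.9 at ERKi 24h, with no peak in any 24h library. These 3 lost Jag1 regions, the Notch2 region below at 45.0 kb and the Hes1 region at 22.0 kb were named after their values were seen. Notch2 gained peaks in introns 14.5 kb (121, 77.5 and 121 at 24h) and 67.0 kb downstream (25.2, 31.9 and 29.8) and lost one 45.0 kb upstream. The 67.0 kb region also had no peak at 4h or ERKi 4h and had 28.7, 25.7 and 26.4 at ERKi 24h.

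Hes1 gained peaks 22.0 kb and 795 bp upstream and lost one 19.7 kb upstream, which was next to the falling region at 19 kb and had 28.5, 37.7 and 59.1 fragments at 0h. The gain at 795 bp is the promoter region of Hes1, with 96.6, 94.6 and 140 fragments at 24h, a peak in 1 library each of 4h and ERKi 4h and none at 0h or ERKi 24h. The regions on either side of it, 1.64 kb upstream and 1.18 kb downstream, had a peak in every library, with group means of 145 to 154 and 136 to 162 fragments. Rbpj lost a peak 848 bp upstream of a start site, where the 0h libraries had 24.9, 20.0 and 24.1.
Where regions with a peak in 3 or more libraries were tested with missing values set to the library's 1st percentile, 12 of 103 member regions rose and 8 fell at 24h, beside 15.0% and 6.13% of 60506.

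At ERKi 24h against 24h, the question is which acetylation at these genes depends on MEK and ERK activity. This comparison shares the 24h libraries with the one above, so the 2 are not independent of each other. By pileup, Rbpj, Notch1 and Hes1 regions lost acetylation under the inhibitor and 1 Hey1 region gained it, but as fold enrichment none of these passed. Of the 52 regions 1 rose and 4 fell, beside 2.96% and 4.12% of all regions, and the median log2 difference was 0.089 against -0.004 over all. With the replicate number as a block 12 rose and 9 fell, beside 13.3% and 14.0%.

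The Rbpj region 11.9 kb upstream had 18.4, 19.2 and 19.4 fragments at ERKi 24h. All 3 lay far below the 24h libraries given above and within the range of the 0h libraries (log2 -1.99 ± 0.27, adjusted p = 0.000393). The next region, 18.3 kb upstream (chr5:53927516-53929331), had 28.7, 44.4 and 36.0 at 24h and 11.1, 20.5 and 16.3 at ERKi 24h, without overlap (log2 -1.21 ± 0.29, adjusted p = 0.0163). Its 0h libraries, at 46.8, 35.3 and 60.2, overlapped those of 24h.
Another Rbpj region, 65.2 kb upstream, was named after its values were seen, since 1 ERKi 24h library had no peak there and it was outside the test. It had 81.9, 89.5 and 128 fragments at 0h, 88.8, 121 and 109 at 24h, 21.4, 55.5 and 27.4 at ERKi 4h, and 28.2 and 10.1 in the other ERKi 24h libraries. With the missing value set to the library's 1st percentile it fell by 2.91 on the log2 scale (adjusted p = 0.000545 over 60506 regions). In that fit 1 of 103 member regions rose and 7 fell, beside 3.05% and 5.15% of all.

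The Hes1 region 11.5 kb upstream (chr16:30052499-30054530) had 118, 136 and 156 fragments at 24h and 49.4, 80.8 and 77.8 at ERKi 24h, without overlap (log2 -1.0 ± 0.28, adjusted p = 0.0351). The Notch1 region 9.01 kb upstream (chr2:26380780-26382186) had 52.2, 66.1 and 65.8 at 24h and 31.7, 25.7 and 35.8 at ERKi 24h, also without overlap (log2 -0.99 ± 0.26, adjusted p = 0.0277). Its neighbour 17.9 kb upstream had 85.8 ± 28.2 and 44.3 ± 11.3 (adjusted p = 0.057, and 0.000109 with the block).
Hey1, a repressor of the Hes-related family and a Notch target, rose at its region 74.7 kb upstream (chr3:8740738-8742133), from 19.2, 25.1 and 39.1 at 24h to 53.8, 50.0 and 84.0 at ERKi 24h (log2 1.20 ± 0.30, adjusted p = 0.0216). The 0h libraries, at 56.3, 37.7 and 44.9, overlapped both groups, and the Hey1 promoter region 667 bp upstream was at 107 ± 8.37 and 103 ± 9.43 (adjusted p = 0.924). The neighbouring region 78.2 kb upstream had 22.5 ± 9.02 and 37.7 ± 7.93 (adjusted p = 0.0839, and 0.00567 with the block).

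Further regions passed with the block alone. The highest distal region of Dll1, 19 kb downstream, rose from 66.0 ± 35.5 to 91.1 ± 22.0 (adjusted p = 0.379, and 0.00645 with the block), as did the Dll1 region 10.3 kb downstream (0.0365). The Notch3 region 49.4 kb downstream fell from 44.7 ± 11.6 to 27.1 ± 4.15 (0.214, and 0.0104 with the block), and the Rbpj region 595 bp downstream from 127 ± 1.7 to 94.8 ± 18.9 (0.178, and 0.00914 with the block).
Hes1 regions 4.66 kb (adjusted p = 0.0139 with the block), 5.42 kb (0.00986), 46.2 kb (0.0444) and 47.9 kb downstream (0.014) rose, as did the Notch2 region 11.6 kb downstream (0.00461), the Jag1 region 36.4 kb downstream (0.0433) and the Rbpj region 92.3 kb upstream (0.0257).

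As fold enrichment none of the 5 calls passed (adjusted p = 0.0871 for the Rbpj region 11.9 kb upstream and 0.115 to 0.889 for the others). The log2 differences kept their sign but were smaller, at -0.54 and -0.5 for the Rbpj regions 11.9 and 18.3 kb upstream. They were -0.48 for Notch1, 0.37 for Hey1 and -0.07 for Hes1. By fold enrichment 3 other tested regions rose and 0 fell, so the balance of calls was not that found by pileup. The share of all regions that passed by that measure is not given here. The call of the Rbpj region 18.3 kb upstream was lost without 24h replicate 2 or ERKi 24h replicate 1 (adjusted p up to 0.0845), and that of the Notch1 region without 24h replicate 2 or 3 or ERKi 24h replicate 1 or 2 (up to 0.101). The Hes1 call was lost without any one 24h library or without ERKi 24h replicate 1 or 3 (up to 0.153), and the Hey1 call without 24h replicate 1 or 2 or ERKi 24h replicate 3 (up to 0.113). Over all 15 omissions the log2 values stayed between -1.41 and -0.97 for Rbpj, -1.1 and -0.86 for Notch1, -1.13 and -0.77 for Hes1, and 0.96 and 1.48 for Hey1. The Rbpj call 11.9 kb upstream passed without each of the 15 libraries.

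By presence of a peak, 2 of 120 member regions had one in all ERKi 24h and no 24h library, the Jag1 region 17.5 kb downstream and a Hey1 region 24.8 kb upstream (19.2, 20.5 and 37.3 at ERKi 24h), beside 1.73% of all regions. The reverse held for 2, the Hes1 promoter region 795 bp upstream and an Rbpj region 58.6 kb upstream (15.7, 21.6 and 29.8 at 24h), beside 1.41%.

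**Figure D5:**
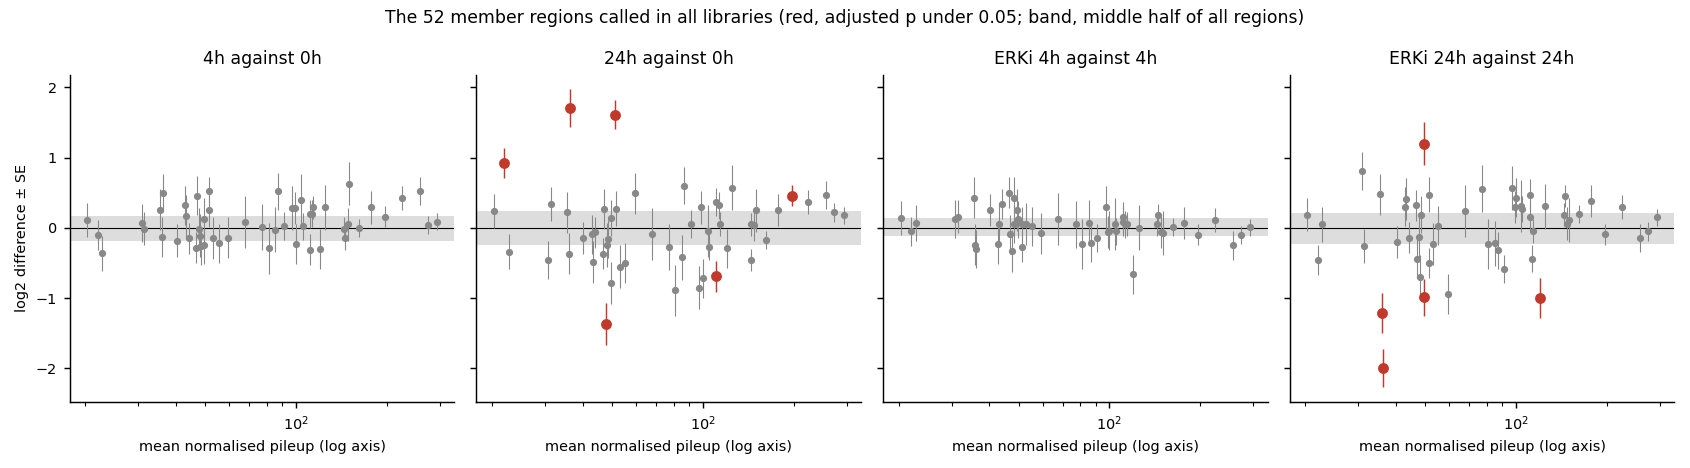
Log2 difference with its standard error against mean normalised pileup (log axis) for the 52 member regions with a peak in every library, in the 4 comparisons without the replicate block, with red points at adjusted p under 0.05 and a grey band over the middle 50% of all regions. No point is red at 4h against 0h or ERKi 4h against 4h, and the Rbpj region 11.9 kb upstream is the highest point at 24h against 0h, at 1.70, and the lowest at ERKi 24h against 24h, at -1.99.

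At 4h no Notch gene region passed the limma test without the block. At 4h against 0h, 0 of 52 rose or fell (3 and 0 at an unadjusted p under 0.05), beside 3.41% and 0.163% of all regions, with a median log2 difference of 0.046 against -0.036. With the block 5 rose and 0 fell, beside 12.0% and 5.12%. These were Notch2 regions 44.1 kb (203 ± 21.3 fragments at 0h and 293 ± 45.2 at 4h, adjusted p = 0.000228) and 31.0 kb downstream (0.00226), Hes1 regions 4.66 kb downstream (0.000994) and 40.0 kb upstream (0.00381), and the Jag1 region 67.3 kb downstream (0.0253). By presence of a peak 0 regions were gained and 2 lost, those of Jag1 32.1 and 39.4 kb upstream, beside 1.65% and 0.565%.
At ERKi 4h against 4h, 0 of 52 rose or fell (1 and 1 unadjusted), beside 0.00743% and 0.219%. With the block 0 rose and 1 fell, beside 0.835% and 3.25%, which was the Hes1 region 11.5 kb upstream (137 ± 34.0 at 4h and 89.7 ± 36.1 at ERKi 4h, adjusted p = 0.794, and 0.00793 with the block). By presence of a peak 0 were gained or lost, beside 0.316% and 0.449%.
The ERKi effect at 24h minus that at 4h passed for 0 of 52 regions (1 higher and 5 lower unadjusted), and with the block for 1 higher and 4 lower, beside 2.0% and 2.02% of all regions.

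The other genes of the pathway, a list of 50, had 323 regions, of which 111 in 35 genes had a peak in every library. At 24h against 0h 13 of these rose and 8 fell, beside 10.7% and 6.52% of all regions, and at 4h against 0h 4 rose and 0 fell, beside 3.41% and 0.163%. At ERKi 4h against 4h 0 rose or fell, beside 0.00743% and 0.219%, and at ERKi 24h against 24h 2 rose and 5 fell, beside 2.96% and 4.12%. With the block 24 rose and 16 fell at 24h against 0h, and 13 rose and 9 fell after 4h. With the inhibitor 0 rose and 5 fell at ERKi 4h, and 9 rose and 20 fell at ERKi 24h, beside the shares of all regions in that fit given above. These counts, and those of the smaller lists below, which hold 32 tested regions at most, are descriptions. Whether any list departs from the shares of all regions was not tested, and nothing particular to the pathway is read from them.
Among 32 regions of nuclear cofactors, 5 rose and 2 fell at 24h, beside the same 10.7% and 6.52% of all regions, to which the 24h counts of the lists below also compare. Among 26 regions of pathway regulators 2 rose and 2 fell at 24h, led by a region 3.12 kb upstream of Fbxw7, a ubiquitin ligase subunit that marks the Notch intracellular domain for degradation, with 25.3 ± 5.53 at 0h, 49.7 ± 4.99 at 4h and 62.0 ± 5.47 at 24h (log2 1.32 ± 0.21, adjusted p = 0.000269 at 24h).
Of 4 regions of glycosyltransferases, which modify the receptors, 2 rose and 1 fell at 24h. The Lfng region 3.75 kb downstream was higher than its 0h level of 117 ± 9.48 both at 4h, with 187 ± 23.1, and at 24h, with 206 ± 33.8 (adjusted p = 0.025 and 0.00188), and the Pofut1 region 1.43 kb downstream rose from 95.0 ± 16.8 at 24h to 175 ± 37.7 at ERKi 24h (adjusted p = 0.0157).
Of 11 protease regions 2 rose at 24h, led by the promoter of Furin, the convertase that processes the receptors (101 ± 17.4 to 155 ± 24.4, adjusted p = 0.0145). Of 9 regions of ligand endocytosis genes 2 fell, led by that 248 bp downstream of the Neurl1b start (246 ± 48.5 to 152 ± 20.1, adjusted p = 0.00584). Among 28 regions of other targets 2 rose and 1 fell at 24h, a region 31.0 kb upstream of Ccnd1 (123 ± 26.2 to 61.4 ± 15.5, adjusted p = 0.00881), and at ERKi 24h 1 rose and 3 fell (2.96% and 4.12% of all regions), led by a region 86.2 kb downstream of Gata3 (102 ± 20.3 to 52.3 ± 4.89, adjusted p = 0.0146). Nrarp, itself a Notch target and feedback inhibitor, had a region 36.5 kb upstream that fell from 211 ± 19 to 150 ± 33.3 at ERKi 24h (adjusted p = 0.038). The 1 tested region of the remaining ligands did not pass, and Notch4 had no tested region.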

How the data were processed

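H3K27ac ChIP-seq peak lists of 15 libraries were used. The other 13 samples of the series, RNA-seq and input libraries, were not analysed here. Per the labels and the study's methods, the authors used Bowtie for alignment to mm9 and MACS2 for peaks, library by library. Whether an input was set against each library at that step is not given in the sources used here. The lists as deposited give for each peak a fold enrichment over the local background, a −log10 p, a −log10 q (the score columns) and a summit position.

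The summit pileup was solved from fold enrichment and −log10 p as the whole number of fragments that gives both (within 0.005 in −log10 p for all but 25 of 893719 peaks). Overlapping peaks were joined into regions. Pileups, with 1 added, were divided by median-ratio size factors (0.779 to 1.37) over 26934 regions with a peak in all libraries. There the log2 of this value was fitted with limma 3.58.1 in R 4.3.3 (trend, all 15 libraries). The p-values were adjusted by Benjamini-Hochberg, with a call at under 0.05. A fold change is on that log2 scale. Scripts ran in Python 3.11.15 and were tested on simulated data.

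The same replicate number occurs in each group. Deviations from group means correlated between all 30 same-numbered pairs of libraries (r from 0.341 to 0.792, mean 0.583). For this reason the numbers were taken to pair libraries in the block fit. The mean was -0.285 for 60 differently numbered pairs. It is not separate evidence, since deviations cancel within a group and a positive mean for same-numbered pairs brings a negative one for the others. The main fit leaves this pairing out, and calls given without mention of the block come from the main fit. Each count of calls is given with and without the pairing for the Notch gene regions and the other pathway genes together, but not for the smaller lists.

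Start sites came from GENCODE vM1 (mm9). Named regions were, for each gene, the promoter and the distal region with the highest mean pileup, up to 3 called regions by lowest adjusted p, and up to 2 with a peak in every library of a group and no peak in another group. For the other pathway genes the named region was the called one with the lowest p of each list. Many of the Notch gene regions that passed with the block alone fall outside these rules. They were named because they passed, after their values were seen. Some genes of these lists are not reported here. Members, lists and the pileup measure were chosen with earlier results of these data known.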

Additional observations from a re-analysis of the deposited data

Results flagged for a closer look

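The ERKi effect at 24h differed from that at 4h for 5 of the 52 tested regions when the replicate number was a block. The log2 difference between the 2 effects was -1.69 ± 0.27 (SE) at the Rbpj region 11.9 kb upstream (adjusted p = 0.000616, limma), -1.12 at the Notch3 region 49.4 kb downstream (0.0242), -1.1 at the Notch1 region 9.01 kb upstream (0.0121), -0.86 at the Notch1 region 17.9 kb upstream (0.0365) and 0.94 at the Hey1 region 74.7 kb upstream (0.0445). Without the block 0 of 52 passed, with adjusted p = 0.338 for the Rbpj region. Beside these, 539 regions of all 26934 were higher and 543 lower in the block fit. No group had enough libraries for a search for outlying libraries.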

How the results depend on the processing

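With the replicate block, the count of member regions that rose went from 0 to 5 at 4h against 0h, from 4 to 11 at 24h against 0h and from 1 to 12 at ERKi 24h against 24h, and the count that fell from 2 to 10, from 4 to 9 and, at ERKi 4h against 4h, from 0 to 1. All 11 named calls passed with the block. Their direction could not change, since each group holds the same replicate numbers and the block then leaves the log2 differences as they are. With fold enrichment in place of pileup, 2 rose at 24h and 3 rose and 0 fell at ERKi 24h, and the log2 difference at 24h turned to -0.08 for Jag1 at 521 bp and 0.15 for Notch1 at 21.8 kb. With −log10 p, 5 fell at 24h and 2 rose at ERKi 24h, and with the percentile of the pileup 2 rose and 2 fell at ERKi 24h. With regions called in 3 or more libraries, 12 rose and 8 fell at 24h and 7 fell at ERKi 24h. With peaks of −log10 q of at least 10, 1 rose and 0 fell at 24h, and 0 rose and 0 fell at ERKi 24h. The cause of these shifts was not tested, beside the fewer or more regions that the last 2 settings test. Quantile normalization, 1 start site per gene and merging peaks within 1000 bp left each of these counts within 1.5 times. Counts by presence of a peak moved under −log10 q of at least 10 (gained and lost 1 and 0 at 4h and 2 and 2 at 24h, with 0 gained at ERKi 24h), when peaks had to cover 0.5 or more of a region (1 lost at 4h, 3 and 3 at 24h, 0 gained at ERKi 24h) and under merging (1 lost at 4h, 2 lost at 24h and 1 lost at ERKi 24h). Leaving out 1 library at a time, the count that fell ranged from 1 to 7 at 24h (changed without 0h replicate 1 or 3 or 24h replicate 1 or 3) and from 2 to 5 at ERKi 24h (24h replicate 2 or 3 or ERKi 24h replicate 1), and the counts that rose from 3 to 4 and from 0 to 1 (24h replicate 1 or ERKi 24h replicate 3). By presence of a peak, with fewer libraries to meet the rule, gained and lost ranged from 0 to 2 and 2 to 5 at 4h, 6 to 10 and 6 to 10 at 24h, 0 to 3 and 0 to 1 at ERKi 4h, and 2 to 5 and 2 to 5 at ERKi 24h. Alternatives for promoter counts were chosen after seeing the data: with −log10 q of at least 10 the Hey1 difference went from 1.0 to 0.667 peaks at 4h and from -1.0 to -0.667 at ERKi 4h, and the Hes1 difference from 1.0 to 0.333 at 24h and from -1.0 to -0.333 at ERKi 24h. Leaving out 1 library could not move these promoter differences, since the counts were the same in all libraries of each group compared. Read depth is unknown, and a region with no peak in a library has no level there.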
